A study of Pinus elliottii with 16 samples.

Results

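Slash pine (Pinus elliottii) trees were wounded for resin, and the effect of a resin stimulant paste on gene expression in the cambium was compared with that of wounding alone on day 5. The comparison used 8 of the 16 libraries of the series, 4 from trees that received paste and 4 from control trees, chosen by their labels. The trees were 16 years old, and all had already been tapped with conventional paste at fortnightly intervals during the preceding year, the controls included. In both groups the bark was stripped. In the paste group a streak holding 3% ethephon (sold as Ethrel) and 20% sulfuric acid by volume was then laid on the wound, with rice husk powder as an inert carrier, while controls received nothing. Tissue came from just above the wound, and the labels describe it as vascular cambium. They speak of randomly chosen trees without tying a library to a tree, so the p-values measure the spread between these libraries. No gene names or sequences were paired with the feature identifiers here, so markers of cambium, wood or bark were not checked.

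The vascular cambium is the sheet of dividing cells that makes wood towards the inside of the stem and bark towards the outside. In pines it also gives rise to the resin ducts, whose lining cells make and secrete the terpenes of resin. Ethephon breaks down in plant tissue to ethylene, a gaseous hormone of wounding and ripening, and is used in tapping because it raises resin flow. Sulfuric acid is used in such pastes to keep the wound from sealing. The series has no group given only acid or only ethephon, and what each contributed cannot be told apart. In RNA from whole tissue, fewer cells of a type and less RNA per cell cannot be told apart either.

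Levels are given as normalized fragments, the authors' estimate of how many sequenced fragments came from a feature, scaled by the library's size factor. A feature is 1 annotated locus or transcript model. The worth of 1 fragment was estimated here from the spacing of low values, and was 0.758 to 1.42 normalized fragments. By that estimate the 8 libraries each had 3938550 to 5211090 fragments assigned to the features deposited, which leaves out any other reads. Of the 8949 features deposited, 5377 reached a value of 10 in at least 4 of the 8 libraries and were tested, which is 60.1%, and 4337 reached it in all 8. Of the 3572 not tested, 1422 were at 0 in every one of the 8 libraries. At the edge of this filter, 212 features reached 10 in exactly 4 libraries, with a median level of 14.9, and 201 features reached it in exactly 3, with a median level of 10.05. Only 14 of the tested features passed through all 4 paste libraries with no control at 10, and 18 through all 4 controls with no paste library at 10. By that filter these features had to differ between the groups, and 5 of the first kind and 9 of the second are among the changed features below. No feature was at 0 in all libraries of a group and at 10 or more in all libraries of the other.

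The paste libraries differed among themselves more than the controls did. Correlations of log2 levels across the tested features were 0.918 to 0.946 between controls. Paste replicates 1 and 3 correlated at 0.913 and replicates 2 and 4 at 0.921, while correlations between those pairs ranged from 0.795 to 0.890. Between paste and control libraries they ranged from 0.787 to 0.894. Paste replicate 1 averaged 0.879 with the controls and 0.843 with the other paste libraries. Replicates 2, 3 and 4 averaged higher with the other paste libraries than with controls. The first principal component of the 8 libraries took 43.7% of the variance. On it, controls scored -49.5 to -13.95, paste replicate 1 -23.4, replicate 3 13.2, and replicates 2 and 4 68.2 and 70.0. The second component took 20.3%. There controls scored -37.5 to -9.21, paste replicates 1 and 3 scored 54.7 and 41.1, and replicates 2 and 4 scored -0.61 and -20.5. Paste replicate 1 thus lay within the control range on the first component and outside it on the second. Replicates 2 and 4 had 6437 and 6404 features above 0 and 40.7% and 41.8% of their signal in the 100 features with most fragments. In replicates 1 and 3 there were 6753 and 6800 features above 0 and 32.7% and 30.4% of the signal in the top 100. The part of this difference in the results was not tested. Paste replicate 1 was also nearly identical to a library labelled paste day 15, replicate 1. Across features they correlated at 0.987, and the median squared difference of their fragment numbers was 1.71 times what counting alone gives, against 10.7 or more in the other 119 pairs of the series. The counts of changed and of non-overlapping features, the shares of signal, the spread and the named features' calls are also given without paste replicate 1.

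Paste changed 102 features on day 5, of which 58 rose and 44 fell (limma on log2(value + 1), p below 0.05 after Benjamini-Hochberg adjustment, 4 libraries a group). That is 1.9% of the features tested, 1.08% higher and 0.818% lower. The features that rose did so by 1.72-fold to 47.9-fold, with a median of 5.56-fold and a median log2 change of 2.47. The features that fell did so by 1.70-fold to 127-fold, with a median of 5.30-fold and a median log2 change of -2.41. Over all features tested the median log2 change was -0.05, with quartiles of -0.43 and 0.37. Among the features that rose, 35 changed by at least 4-fold, 22 by at least 8-fold and 7 by at least 16-fold. Among those that fell the numbers were 25, 19 and 10. Only 9 of the 102 changed by less than 2-fold, 3 of them up and 6 down.

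The plot of change against level shows called features with means from 9.58 to 30704 normalized fragments over the 8 libraries.

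**Figure D1:**
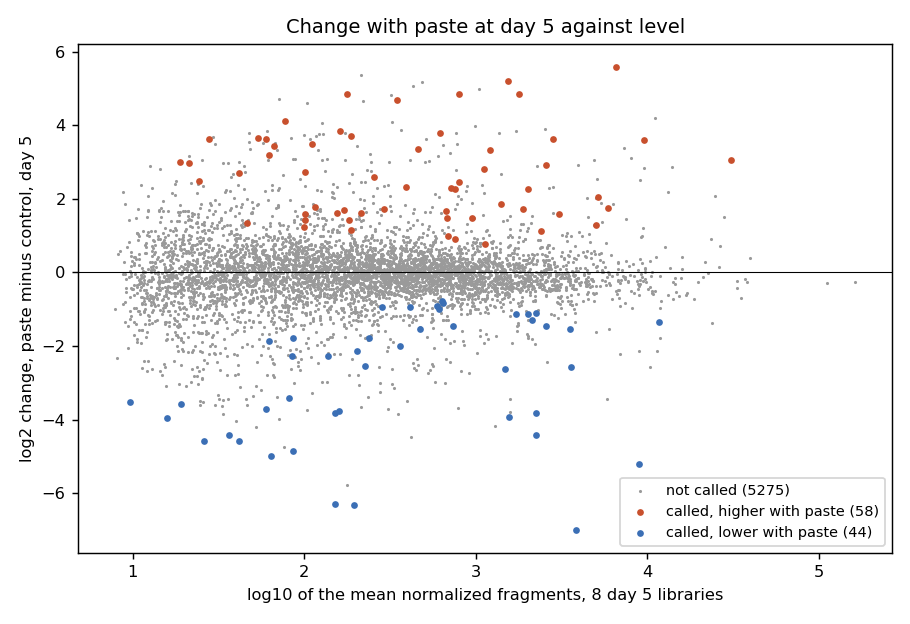
Log2 change with paste on day 5 (vertical axis) against the log10 of the mean normalized fragments over the 8 day 5 libraries (horizontal axis), 1 point per feature tested. The 58 features that rose and the 44 that fell are coloured, and the grey points did not pass the test.

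The number of calls rested on which libraries were used. Without paste replicate 1 it was 314, with 163 higher and 151 lower, and 101 of the 102 features were among them. Without paste replicates 2 and 3 in turn it was 52 and 44, and without replicate 4 it was 100, of which 65 were shared with the 102. Without control replicates 1, 2, 3 and 4 in turn it was 19, 54, 26 and 30. Estimating the error from all 16 libraries of the series gave 39 calls, 12 higher and 27 lower, of which 30 were shared.

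Libraries of the groups did not overlap in any of the 102 features. Over all features tested, 13.5% had no overlap. The 102 were chosen on these same values, so their lack of overlap and the gaps below describe the choice and were not tested. The lowest paste value of each feature that rose lay above the highest control value by a log2 difference of 0.36 to 3.42, with a median of 1.06. For the features that fell, this gap between the groups was 0.32 to 5.01, with a median of 1.28. In 32 of the 58 and 25 of the 44 the gap alone was 2-fold or more. Median levels of the features that rose went from 102 in controls to 747 with paste, and of those that fell from 466 to 124.

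The changed features made up a small part of the signal, which is the sum of a library's values over the features deposited. Together the 58 that rose held 0.589% ± 0.0411 of a control library's signal and 3.41% ± 0.744 of a paste library's (SD, n = 4 each). Without PITA_000070401, the feature with the most fragments among them, these shares were 0.466% ± 0.0349 and 2.34% ± 0.125 (SD, n = 4 each). For the 44 that fell, a control library held 2.02% ± 0.389 and a paste library 0.463% ± 0.132 (SD, n = 4 each). In both lists the paste libraries lay apart from the controls, with 2.83% to 4.48% against 0.541% to 0.640% for the first and 0.350% to 0.643% against 1.52% to 2.45% for the second. Without paste replicate 1 the paste means were 3.61% ± 0.779 and 0.403% ± 0.0688 (SD, n = 3). These shares describe features chosen on the same difference and were not tested.

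The change lay in each paste library, as the lack of overlap requires. Relative to the control mean, the features that rose had median log2 differences of 2.34, 2.83, 2.06 and 2.31 in paste replicates 1 to 4. The features that fell had -2.01, -2.52, -2.34 and -2.27. Paste replicate 2 was the farthest from controls in 37 of the 58 features that rose. Among the 44 that fell, replicate 3 was the farthest in 16 and replicate 2 in 15. Paste replicate 1 was the nearest to controls in 18 of the features that rose and 16 of those that fell. Replicates 3 and 4 were each the nearest in 17 and 11, and replicate 2 in 6 and 6. Among the controls, replicate 2 came nearest to paste in 23 of the 58 and 18 of the 44.

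**Figure D2:**
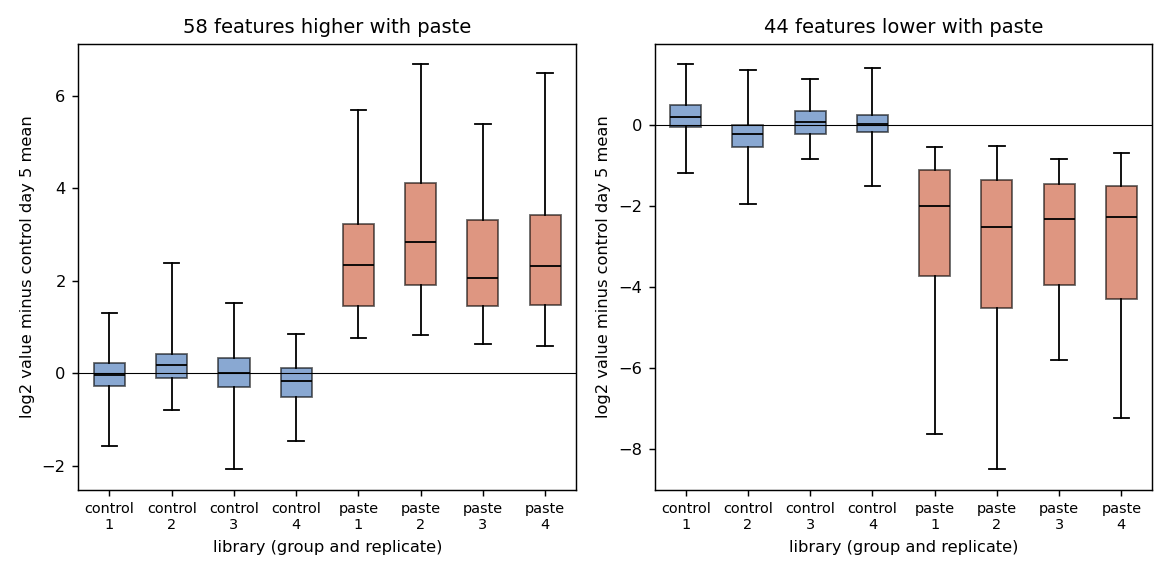
Log2 level minus the control mean (vertical axis) in each of the 8 day 5 libraries (horizontal axis) for the 58 features that rose (left) and the 44 that fell (right). Boxes span the quartiles with the median, and whiskers reach the lowest and highest feature. Medians lie at 2.06 to 2.83 in the paste libraries on the left and at -2.52 to -2.01 on the right.

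Of the features named here, PITAhm_002677 had the largest rise. Its level was 208, 432, 206 and 143 normalized fragments in control replicates 1 to 4 and 4648, 18852, 7948 and 20312 in paste replicates 1 to 4. The lowest paste library stood above the highest control by 3.42 on the log2 scale, and paste replicates 2 and 4 stood above replicates 1 and 3. The means were 247 ± 127 and 12940 ± 7809 (SD, n = 4 each). On the log2 scale the change was 5.58 (SE 0.53, limma adjusted p = 0.00485), which is 47.9-fold. The call held when each of the 8 libraries was left out in turn (limma adjusted p of 0.00586 to 0.0235), paste replicate 1 included, but not with the error from all 16 libraries (limma adjusted p = 0.0537). Over all 20 alternatives the adjusted p ranged from 0.00137 to 0.0537.

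PITA_000070401 had the most fragments among the features that rose. Its level was 3984, 3719, 7517 and 7417 in the controls and 26672, 116851, 23209 and 56262 with paste. The groups did not overlap, and paste replicates 2 and 4 were again the highest. The feature took 0.122% ± 0.0407 of the signal of a control library and 1.08% ± 0.654 of that of a paste library (SD, n = 4 each). Its log2 change was 3.07 (SE 0.53, limma adjusted p = 0.0339), 8.38-fold. The call was lost in 5 of the 8 fits that left out 1 library, those without any 1 of the 4 controls and without paste replicate 4, where the log2 change stayed between 2.89 and 3.23 and the adjusted p was 0.0653 to 0.107. Over all 20 alternatives the adjusted p ranged from 0.0101 to 0.107.

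The largest fall was that of PITA_000058385. Control replicates 1 to 4 were at 5263, 3871, 14677 and 6675 normalized fragments, and paste replicates 1 to 4 at 32.8, 40.8, 119 and 44.1. The highest paste library, replicate 3, lay below the lowest control by 5.01 on the log2 scale. The means were 7622 ± 4841 without and 59.2 ± 40.1 with paste (SD, n = 4 each), and on the log2 scale the change was -6.99 with an SE of 0.50 (limma adjusted p = 0.00268), 127-fold. It kept its call under all 20 alternatives, with log2 changes of -7.39 to -6.40.

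PITA_000016402 had the most fragments among the features that fell, and its change was smaller than 4-fold. Its level was 17575, 16205, 19956 and 13375 in controls and 8722, 8456, 4747 and 5053 with paste. The SD of its log2 level was 0.24 in controls and 0.47 with paste. Here replicates 3 and 4 were the lowest paste libraries. It fell by 1.36 on the log2 scale with an SE of 0.26 (limma adjusted p = 0.0428), 2.56-fold. It kept its direction under the 20 alternatives but lost its call in 7 of the 8 fits that left out 1 library, all but that without paste replicate 1, and in 3 others, with an adjusted p of 0.0166 to 0.125 overall.

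**Figure D3:**
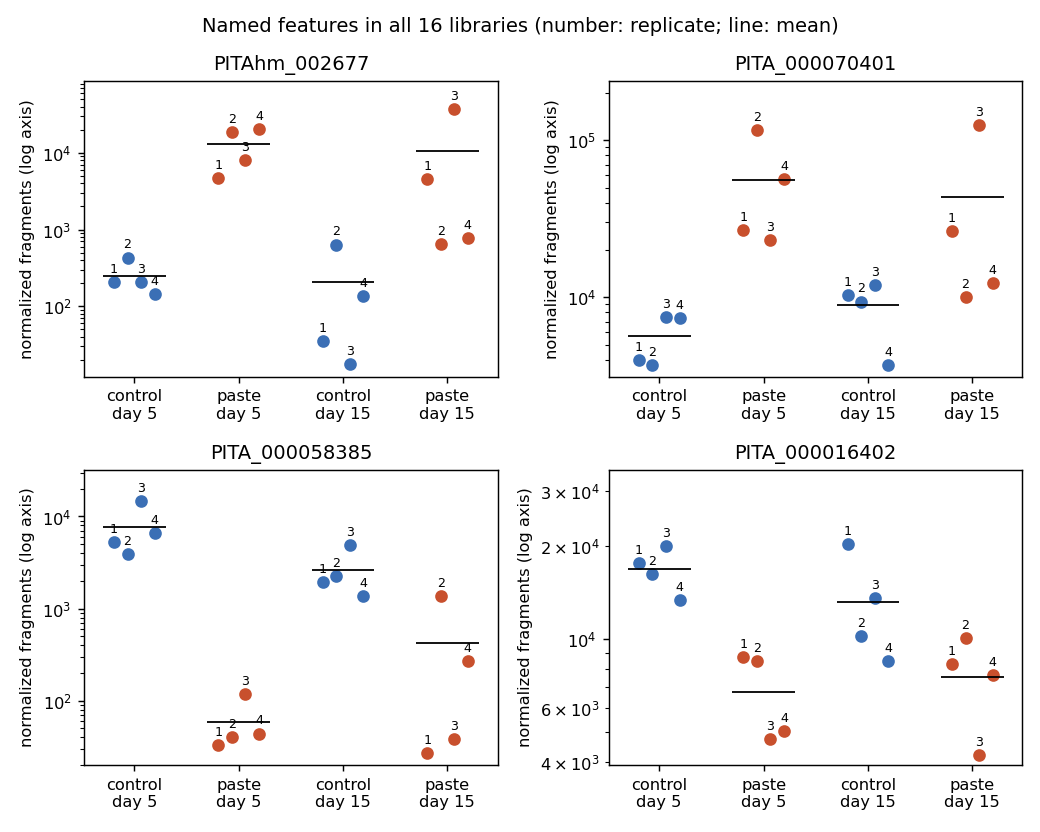
Normalized fragments (log axis) of the 4 named features in the 4 groups, 1 point per library with its replicate number, and the group mean as a line (n = 4). On day 5 the paste libraries of each feature lie wholly on 1 side of the controls, while on day 15 PITA_000070401 and PITA_000016402 overlap.

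Beyond the called features, 725 of the 5377 tested, 13.5%, had all 4 paste libraries outside the range of the 4 controls, 368 above (6.84%) and 357 below (6.64%). The number was 1303 without paste replicate 1, 656 above and 647 below, and 860 to 1024 without any 1 of the other libraries. Fewer libraries in a group make overlap less likely by construction. Of the 725, 623 did not pass the adjusted threshold. Their median estimate was 1.75-fold, and 227 of them had an estimate of at least 2-fold. The unadjusted p was below 0.05 for 1111 features, 556 higher and 555 lower, and the adjusted p below 0.1 for 248. A change of at least 2-fold was estimated for 1022 features, of which 93 were called.

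Which paste libraries lay beyond the control range varied by feature. Exactly 1 of them lay above all controls in 1206 features and below all in 1135, among which replicate 1 alone made 372 and 364. Exactly 2 did so in 1021 and 1186. By pairs, exactly replicates 2 and 4 lay above all controls in 436 features and below all in 568. Exactly replicates 1 and 3 did so in 336 and 359. For each of the 4 other pairs the features numbered 38 to 73 above and 53 to 76 below. Where exactly 3 paste libraries lay beyond the controls, replicate 1 was the one left behind in 288 features above and 290 below, and each of the others in 74 to 126 above and 59 to 173 below. In 80 features replicates 2 and 4 lay above all controls while 1 and 3 lay below all of them, and in 152 features the reverse held. Such features have paste libraries on both sides of the controls. These pairs are the ones that also differed in the number of features above 0 and in the share of signal in the top 100, as given above. Control replicate 3 had 6532 features above 0 and 39.6% of its signal in its top 100, and averaged a correlation of 0.927 with the other controls.

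**Figure D4:**
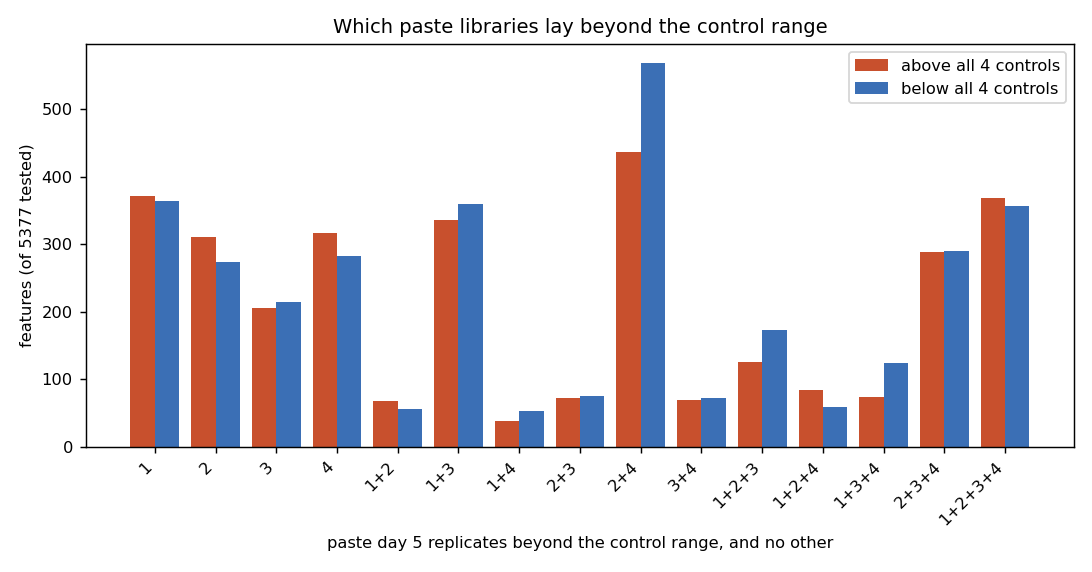
Number of tested features (vertical axis, of 5377) in which exactly the paste day 5 replicates named on the horizontal axis lay above all 4 controls (red) or below all 4 (blue). Replicates 2 and 4 without the others account for 436 and 568 features, and all 4 together for 368 and 357.

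Paste libraries were also more spread out feature by feature. The median SD of the log2 level was 0.35 in controls and 0.52 with paste, and 71.2% of the features had the larger SD with paste. Leaving out 1 library in turn gave 0.29 to 0.33 in controls and 0.47 to 0.53 with paste, with 0.47 without paste replicate 1. Neither the number of features at 10 or more nor the share of the top 100 differed detectably between the groups. There were 5292 ± 66.3 detected features in a control library and 5242 ± 138 in a paste library (SD, n = 4 each, exact two-sided permutation test, p = 0.571, adjusted over 2 tests 0.83). The top 100 took 35.4% ± 2.85 and 36.4% ± 5.69 (SD, n = 4 each, exact permutation test, p = 0.83, adjusted 0.83). The smallest p this design allows is 0.0286.

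Calls came from every level of abundance. The tested features were divided into 4 bins of nearly equal size by their mean over the 8 libraries. In the bin with fewest fragments, 7 features rose and 6 fell, 0.967% of its 1345. In the next bin 18 rose and 13 fell (2.31%), in the one after it 8 and 10 (1.34%), and in the bin with most fragments 25 and 15, which is 2.98% of its 1344. Over all tested features the share was 1.9%, and the bins showed no steady order. The median SE of a log2 change went from 0.55 in the lowest bin to 0.24 in the highest. The share of features without overlap between the groups went from 8.77% in the lowest bin through 13.5% and 14.6% to 17.1% in the highest. From the lowest bin to the highest, 67, 113, 99 and 89 features lay wholly above control, and 51, 68, 97 and 141 wholly below. Over all tested features 368 lay above and 357 below. No test of direction against level was run.

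The same 102 features were then followed in the day 15 libraries, which the choice of features did not use, apart from the near-identical pair. All 58 that rose had an estimate above 0 on day 15, and 42 of the 44 that fell had one below 0. Over all tested features 78.7% had the same sign on both days. Median log2 changes on day 15 were 1.80 for the features that had risen and -1.20 for those that had fallen, against -0.01 for all features. Without the day 15 library nearly identical to paste replicate 1 the medians were 1.64 and -1.06, with 58 and 41 signs kept and 78.1% over all features. The day 15 paste libraries differed widely. The features that had risen stood above the day 15 control mean by median log2 differences of 2.39 and 3.52 in replicates 1 and 3, and of 0.58 and 0.83 in replicates 2 and 4. The features that had fallen stood at -1.52 and -1.82 in replicates 1 and 3 and at -0.48 and -0.90 in replicates 2 and 4. Without day 15 replicate 3 the medians were 1.18 and -0.83, and 66.2% of all features kept their sign.

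On day 15 itself 0% of the features passed (limma, 0 of 5377), and the smallest adjusted p was 0.791. An unadjusted p below 0.05 was reached by 273 features, 5.08% of those tested, among them 22 of the 58 and 18 of the 44. That number was 174 without paste day 15 replicate 1 and 526 without replicate 2. Groups did not overlap on day 15 in 190 features, 3.53% of those tested. Among these were 9 of the 58 features, wholly above control, and 7 of the 44, wholly below. Without paste day 15 replicates 1, 2, 3 and 4 in turn the 190 became 287, 611, 397 and 319. Without replicate 2, where the 611 made up 11.4% of the features tested, 20 of the 58 and 22 of the 44 were among them. The difference between the effects on the 2 days was tested directly and passed for no feature (limma interaction, 0 of 5377, 0%), with 54 at an unadjusted p below 0.05, or 208 without paste day 15 replicate 3. Effects on the 2 days are therefore not shown to differ, and a p above the threshold does not show that they were alike. For PITAhm_002677 the log2 change on day 15 was 5.10 (SE 1.51, limma adjusted p = 0.800), with 35.8, 638.3, 17.7 and 136 normalized fragments in controls and 4535, 638.4, 36758 and 777 with paste. The lowest paste library, replicate 2, and the highest control, also replicate 2, were nearly equal there. PITA_000058385 was at 1957, 2251, 4944 and 1382 in day 15 controls and at 27.2, 1355, 38.6 and 273 with paste, a log2 difference of -4.04 (SE 1.16, limma adjusted p = 0.800). Its groups did not overlap on that day either, and paste replicate 2 came close to the lowest control. The day 15 estimates were 1.64 for PITA_000070401 and -0.79 for PITA_000016402 on the log2 scale (SE 0.79 and 0.35, limma adjusted p = 0.800 for both), and their groups overlapped.

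**Figure D5:**
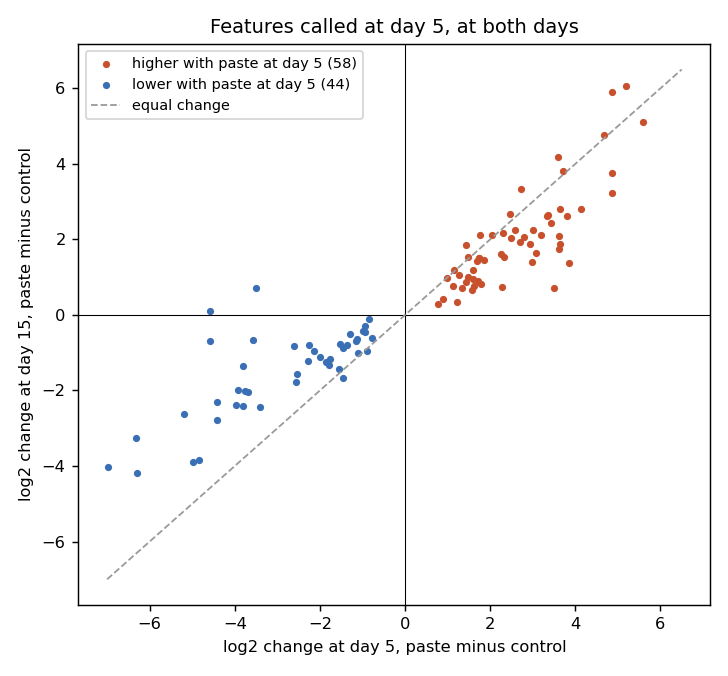
Log2 change with paste on day 15 (vertical axis) against that on day 5 (horizontal axis) for the 58 features that rose and the 44 that fell on day 5, with the line of equal change dashed. All 58 lie above 0 on day 15 and 42 of the 44 below 0.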

How the data were processed

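RNA of 16 libraries was depleted of ribosomal RNA and sequenced as single-end reads of 125 bases, per the labels' protocols. The submitters' processing notes name Cufflinks 2.1.1, HISAT2 2.0.4, Trimmomatic 0.32 and FastQC. No build, annotation or strand setting was given in the sources used here, so near-identical or overlapping features may share fragments. Each deposited value is a signal, estimated fragments over a size factor, per the file headers and the values. In the day 5 libraries 96.8% to 97.8% of low values were within 0.1 of whole fragments. The rest were fractions, so no count model was used.

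Features at 10 or more in at least 4 of the 8 day 5 libraries were fitted as log2(value + 1) with limma 3.58.1 in R 4.3.3 (intensity trend, robust variance, 2 group means). P-values are two-sided and adjusted by Benjamini-Hochberg over the 5377 features. Fold changes are on this scale and come out too small for low features. The fit was tested on simulated data with equal spread in both groups and no likeness between particular libraries, unlike the data here. Day 15 was fitted on its own 8 libraries and the difference of effects on all 16.

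The rule for names took, in each direction, the called feature without overlap that had the largest log2 change and the one with the highest mean. The comparison and this rule were chosen with earlier results of these data known. Lists by gene description could not be run, as identifiers carry none.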

Additional observations from a re-analysis of the deposited data

Results flagged for a closer look

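Of 22 groups of 4 values examined on day 5 and day 15, 4 held a library far from the other 3. By chance alone about 1 group in 20 is picked out, if values are normally distributed, and feature levels were examined here on the linear scale. In the day 5 paste group, PITA_000058385 reached 119 normalized fragments in replicate 3, while the remaining libraries had 32.8 to 44.1. Its log2 change without replicate 3 was -7.39 (limma adjusted p = 0.00210, between 0.000456 and 0.02 over all 20 alternatives). Control day 5 replicate 3 had 39.6% of its signal in its 100 features with most fragments, against 33.4% to 34.3% in the other controls.

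Replicate 3 of the day 15 paste group held 36758 normalized fragments of PITAhm_002677, and the remaining replicates 638 to 4535. The same library held 124970 of PITA_000070401, and the remaining replicates 10008 to 26389. The cause was not tested.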

How the results depend on the processing

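The count of 102 changed features stayed within 1.5 times (75 to 110) with pseudocounts of 0.5 and 4, no filter, a filter on a mean of 50, scaling to the total, by the median of ratios or by a trimmed mean (added after the data were seen), voom with quality weights, and low-data features left out. With voom and quality weights it was 76, 55 higher and 21 lower against 58 and 44, and 58 of the 76 were among the 102. The features called also shifted where the count did not. Of the 110 calls with scaling to the total, 80 were among the 102, and of the 75 with no filter, 70 were. Scaling by the median of ratios or by a trimmed mean gave 98 calls each, all 98 among the 102. Scaling moved the median change of all features by less than 0.1. The count was 262 with library quality weights on the log2 values (118 higher, 144 lower) and 39 with all 16 libraries in the fit. Leaving out 1 library gave 19 to 314. With the replicate block it was 34, 20 higher and 14 lower, 30 of them among the 102. The labels do not tie same-numbered libraries to a common tree. Their deviations from the group means correlated at 0.08, 0.14, -0.16 and -0.29, against -0.25 to 0.37 for libraries of different numbers. Whether same-numbered libraries shared a tree or a batch was not tested. Features without overlap numbered 622 with the filter on a mean of 50, 632 with scaling to the total and 860 to 1303 with 1 library left out (added after the data were seen). The difference in detected features, paste minus control, was -49.5 at a value of 10, 5.5 at 1 and 29.2 at 50 (exact permutation test, p = 0.571, 0.914 and 0.457). Of 80 refits of the named features, 62 kept the call, 18 lost it and 0 changed sign. Day 15 and the difference of effects gave 0 calls in every fit that left out 1 paste day 15 library. The planned count model was not run, for the fractional values. The cause of these shifts was not tested.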

Other observations

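The identifiers fall into 3 kinds, whose meaning the files do not state. Of the tested features, 3652 began with PITA, 1304 with PITAhm and 421 had transcript names. Paste on day 5 raised 34 and lowered 36 of the PITA features (1.92% called), 14 and 5 of the PITAhm features (1.46%), and 10 and 3 of the transcript-named features (3.09%), against 1.9% over all tested. Features without overlap made up 13.5%, 13.9% and 12.4% of the 3 kinds and 13.5% of all, so these totals lay near the background. By direction, 211 PITA features lay wholly above control and 281 below, 126 and 55 of the PITAhm features, and 31 and 21 of the transcript-named features. Estimates were above 0 in 42.7%, 56.1% and 54.4% of the 3 kinds, and in 46.9% of all. With each library scaled to its total the 3 shares were 40.1%, 52.5% and 51.3%. These counts were chosen after the values were seen, and no test of the difference between kinds was run.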
